A study of Papio anubis and Macaca mulatta with 6 samples.

Results

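A group of 9 genes known from pluripotent cells and primordial germ cells was followed in testis cells of 2 baboons and 2 rhesus monkeys: POU5F1, NANOG, TFAP2C, PRDM1, SOX17, LIN28A, LIN28B, SALL4 and L1TD1. The genes were taken by symbol from the gene list of each species. The baboon list of 34178 genes held 8 of the 9, all but NANOG, and the rhesus list of 21356 genes held 7 of the 9, all but NANOG and LIN28A. Those not listed by symbol were not analysed here. Levels were described in germ cells and in somatic cells of each species alone. A germ cell was a barcode with 1000 or more UMIs (unique molecular identifiers, each counted as 1 captured mRNA molecule) and with a UMI of at least 2 of the 6 genes DAZL, MAEL, TDRD1, TEX15, SMC1B and MAGEB2, and a somatic cell was one of the same depth with a UMI of none of them. MAGEB2 was not listed in the rhesus monkey, where the gate therefore used 5 genes.

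POU5F1 (OCT4) and NANOG are transcription factors that hold embryonic stem cells in the pluripotent state, and SALL4, a zinc finger factor, works with them and remains expressed in spermatogonia. In primates, primordial germ cells are specified by SOX17, TFAP2C and PRDM1 (BLIMP1), which together start the germ cell program and hold back the somatic one. LIN28A and LIN28B bind RNA and block the maturation of let-7 microRNAs, and L1TD1 is an RNA-binding protein of pluripotent and early germ cells that derives from a LINE-1 retrotransposon.

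The samples were 6 libraries of testis cells from immature, untreated animals whose testes were collected at necropsy and dissociated with collagenase and then trypsin. A wash after the collagenase step served to remove interstitial cells, so the somatic cells need not have the proportions of the whole testis. Baboon 1 gave the libraries 1A and 1B, rhesus 2 gave 2A and 2B, and baboon 2 and rhesus 1 gave 1 library each, so that each species had 2 animals. The chemistry was v3 for baboon 2 and v2 for the other 5 libraries (10x Genomics, 3′ ends). Ages of newborn and 26 months are given for one species and of 15 and 20 months for the other, but the sources used here disagree on which species had which ages, and no age was attached to an animal. Apart from that wash no cell type was selected before loading, and the 2 libraries of an animal are not separate animals.

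The libraries held 16875294 to 49803025 UMIs, and 21693 baboon and 22648 rhesus barcodes reached 1000 UMIs, with medians of 1615 to 2971 UMIs per library. Among these, 60 barcode sequences in baboons and 252 in rhesus monkeys occurred in more than 1 library. Barcodes with 10 to 100 UMIs were taken as a measure of free RNA. Levels are given in CPM, the UMIs of a gene per 1000000 UMIs, both summed over the cells of an animal, with exact 95% Poisson intervals that cover counting error only.

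The gate passed 209 cells of baboon 1, 417 of baboon 2, 81 of rhesus 1 and 23 of rhesus 2. These cells were deep, with median UMI counts of 6302, 17437, 5601 and 14929, against 1843, 2289, 1619 and 1602 in somatic cells. To check the label, all cells were clustered in each species without the 9 genes and the 6 gate genes, and clusters were named from marker lists. In the baboon the data went partly against the label. Of 626 gated baboon cells, 173 (27.6%) lay in the germ-like cluster and 453 outside it, of which 379 had passed with the pair DAZL and TEX15 alone. Gated cells outside the germ-like cluster had summed Sertoli markers of 10281 CPM in baboon 1 and 9455 CPM in baboon 2, against 9340.5 and 9859.6 CPM in all Sertoli-like cells. DAZL and TEX15 also had UMIs in free RNA, with 35.9 to 38.1 CPM and 29.7 to 35.9 CPM in the libraries of baboon 1 and 19.5 and 59.5 CPM in that of baboon 2; their part in the gate was not tested. In the rhesus monkey, 88 of 104 gated cells (84.6%) were germ-like, but the gate missed many of that cluster: it held 442 cells, 238 of them without any gate gene. For this reason the plot of levels shows each of the genes in the gated cells and in the gated cells inside the germ-like cluster, and the text gives the second value for several of them. The second group rests in part on clusters of the same cells, so its values are a description and its adjusted p-values are not read as tests.

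**Figure D1:**
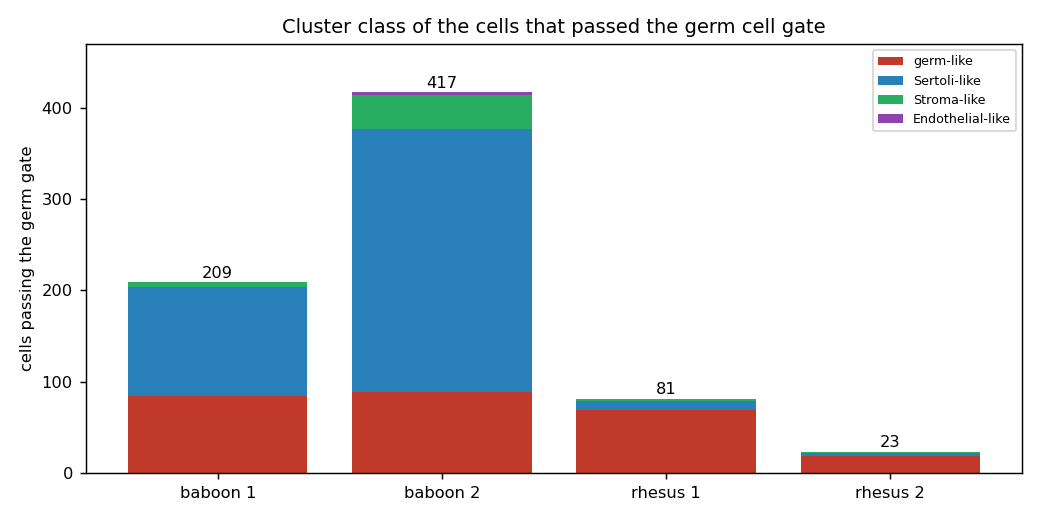
Number of cells that passed the germ cell gate (y axis) in each animal (x axis), colored by the cluster class of the cell, with the total above each bar. Sertoli-like cells make up most of the gated cells in both baboons, and germ-like cells most of those in both rhesus monkeys.

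DDX4, a germ cell RNA helicase, took no part in the gate, although it is among the markers that named the germ-like cluster. Over the whole gate it was at 81.7, 28.0, 22.7 and 50.4 CPM in baboon 1, baboon 2, rhesus 1 and rhesus 2, and at 1.84, 1.93, 1.15 and 0.132 CPM in somatic cells. Gated cells as a whole were above somatic cells in all 4 animals. Gated cells inside the germ-like cluster were at 134, 194, 26.8 and 52.5 CPM, in the same order of animals. In gated baboon cells outside it, the 11 listed germ markers, DDX4 among them, summed to 32.1 and 95.8 CPM. Somatic cells of the 2 baboons had 43.0 and 61.9 CPM of these markers. Of the gated cells outside the cluster, 120 of 125 in baboon 1 and 288 of 328 in baboon 2 were Sertoli-like. All Sertoli-like cells of the 2 baboons had 47.5 and 90.45 CPM of these markers. The 12 gated cells of rhesus 1 outside the cluster held no DDX4 UMI.

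Sums of UMIs per animal and class were compared between gated and somatic cells with the quasi-likelihood test of edgeR, with Benjamini-Hochberg adjustment over all genes tested and n = 2 animals per species. In the baboon 307 of 16151 genes (1.9%) were called higher in gated cells at an adjusted p under 0.05, and in the rhesus monkey 1348 of 12909 (10.4%). Of the 8 genes listed in the baboon, 6 passed the filter on low counts and 2 were called higher, L1TD1 and SALL4. Of the 7 listed in the rhesus monkey, all passed and 5 were called higher, L1TD1, LIN28B, POU5F1, SALL4 and TFAP2C. The genes called had 0.0881 to 1.62 CPM in somatic sums and passed the filter through their gated sums. A call as lower was hardly open to them, so their calls add little to the levels. Of the 6 and 7 genes tested, none was called lower, where 102 of 16151 genes were in the baboon and 1343 of 12909 in the rhesus monkey. The germ and somatic sums of an animal come from the same testis, so the animal was also fitted as a block. With the block, 4 of 6 were called higher in the baboon, where 6.71% of all genes were, and 6 of 7 in the rhesus monkey, where 14.9% were. With the gated germ-like cells set against somatic cells outside that cluster, 6 of 7 were past the threshold in the baboon (16.8% of all genes) and 5 of 7 in the rhesus monkey (13% of all genes), and with the block as well 7 of 7 (23.9%) and 6 of 7 (16.3%). The median log2 fold change of all genes tested was -0.10 in baboons and -0.16 in rhesus monkeys.

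**Figure D2:**
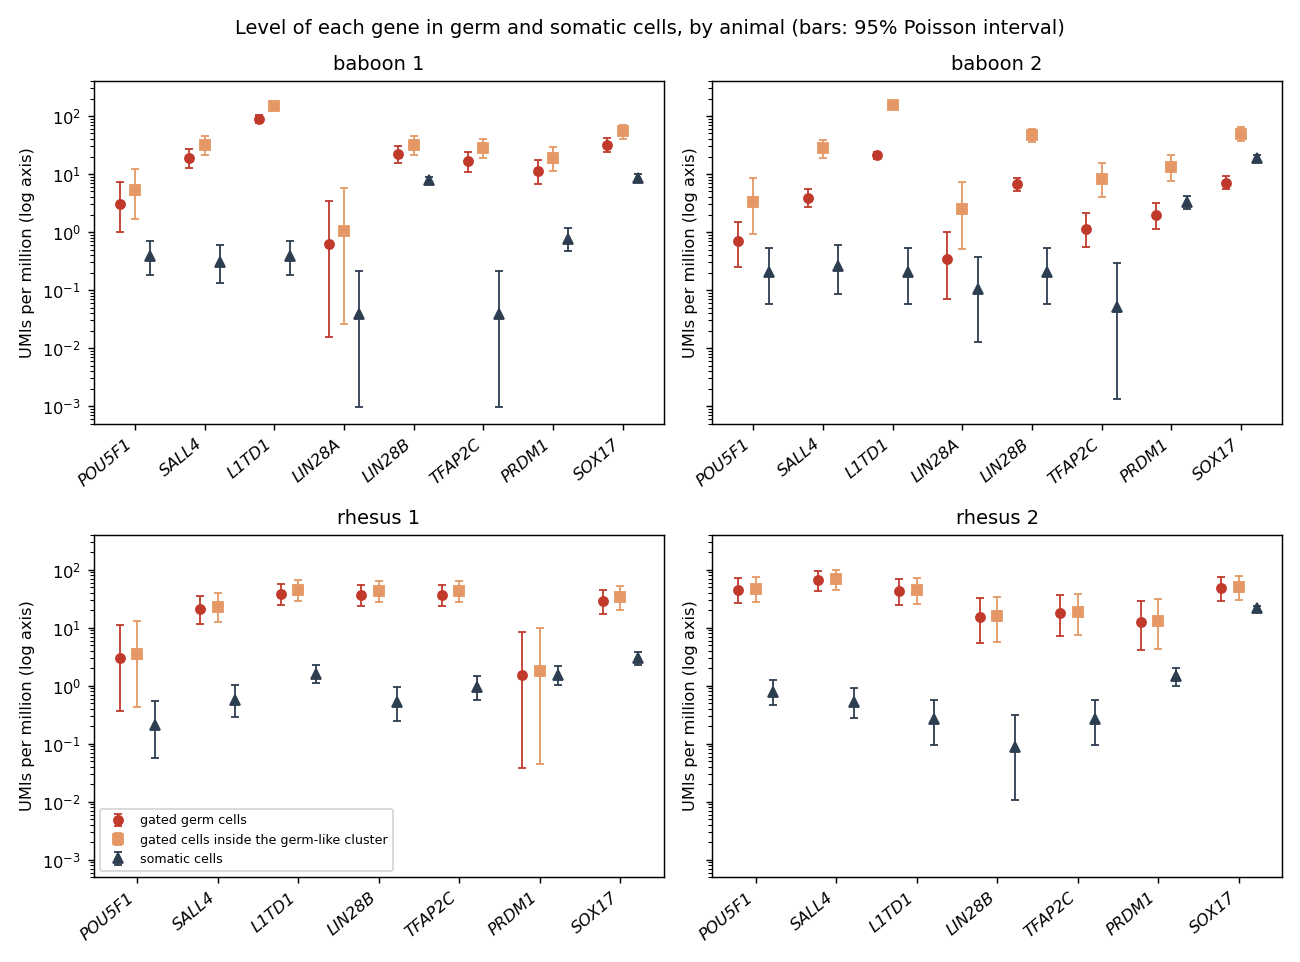
Level in CPM (y axis, log scale) of each gene (x axis) in gated germ cells, in gated cells inside the germ-like cluster and in somatic cells, 1 panel per animal, with exact 95% Poisson intervals. L1TD1 is the highest of the genes in gated baboon germ-like cells, at 151 and 152 CPM, while POU5F1 reaches 45.4 CPM in rhesus 2 and 3.03 CPM in rhesus 1.

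Among the genes of pluripotent cells, POU5F1 differed most between the 2 rhesus monkeys. Its 300-base window around the annotated start in the rhesus genome is shown because this gene divides the 2 animals, and that of LIN28B because it was higher in rhesus germ cells while its baboon test depended on the animal. Both windows run from 250 bases before to 50 after the start of the RefSeq gene in Mmul_10, with matches to GCCNNNGGC, the motif of TFAP2 factors, in capitals. The POU5F1 window is chr4:138762195-138762494 on the plus strand, and the LIN28B window is chr4:68272872-68273171 on the minus strand.
POU5F1: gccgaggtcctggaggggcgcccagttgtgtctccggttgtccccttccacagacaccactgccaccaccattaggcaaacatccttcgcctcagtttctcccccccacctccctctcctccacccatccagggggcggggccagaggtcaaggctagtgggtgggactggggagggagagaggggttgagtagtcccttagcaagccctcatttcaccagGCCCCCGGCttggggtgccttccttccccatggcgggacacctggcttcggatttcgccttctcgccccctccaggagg
LIN28B: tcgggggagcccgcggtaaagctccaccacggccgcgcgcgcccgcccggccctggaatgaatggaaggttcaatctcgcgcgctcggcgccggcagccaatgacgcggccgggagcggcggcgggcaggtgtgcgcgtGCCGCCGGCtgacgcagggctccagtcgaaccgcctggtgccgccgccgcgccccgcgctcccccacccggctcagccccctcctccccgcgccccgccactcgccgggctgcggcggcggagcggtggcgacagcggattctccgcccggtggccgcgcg
This motif, searched on both strands, was found in the windows of 4 of the 9 genes (POU5F1, LIN28A, LIN28B and SOX17) and in 23.4% of the windows of all 20759 protein-coding genes. The octamer ATGCAAAT, the motif of POU factors, was in none of the 9 and in 1.69% of all windows. A match is a description of the letters and not a site of binding.

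In gated germ cells POU5F1 had 5 UMIs in baboon 1 (3.09 CPM), 6 in baboon 2 (0.688 CPM), 2 in rhesus 1 (3.03 CPM) and 18 in rhesus 2 (45.4 CPM). Its somatic levels were 0.383, 0.208, 0.209 and 0.793 CPM. It was low in 3 animals and high in rhesus 2, where 7 of 23 gated cells held it and 4 of them had 2 UMIs or more. Over the whole germ-like cluster, 12 of 45 cells of rhesus 2 (26.7%) and 4 of 397 of rhesus 1 (1.01%) had a POU5F1 UMI. The cells of rhesus 2 were also deeper, with a median of 12040 UMIs against 2118. Among germ-like cells with 10000 UMIs or more, of which each animal had 24, POU5F1 was found in 11 cells of rhesus 2 (45.8%, exact binomial interval 25.6 to 67.2%) and in 1 cell of rhesus 1 (4.17%, 0.105 to 21.1%). The higher level of rhesus 2 was present in both of its libraries, with 15 UMIs in 7 of 21 germ-like cells of 2A and 19 UMIs in 5 of 24 of 2B. This is 1 animal against 1, and the animal, its age and its libraries cannot be told apart.

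**Figure D3:**
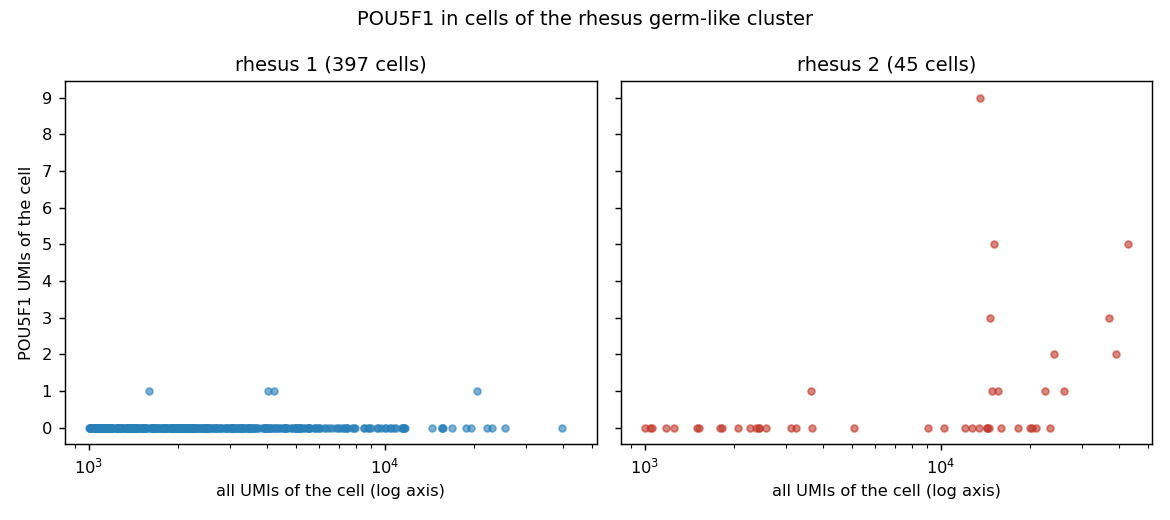
POU5F1 UMIs (y axis) against all UMIs of the cell (x axis, log scale) for each cell of the rhesus germ-like cluster, 1 panel per animal. Cells of rhesus 2 hold up to 9 POU5F1 UMIs, and no cell of rhesus 1 holds more than 1.

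In the rhesus monkey POU5F1 was higher in gated than in somatic cells by 4.98 ± 1.18 (log2 fold change ± SE, edgeR quasi-likelihood test, adjusted p = 0.0175). Rhesus 1 had only 2 gated and 4 somatic UMIs, with a ratio of levels of 14.5 (counting interval 1.31 to 101). Rhesus 2 had 18 and 18, with a ratio of 57.2 (28.1 to 117). Without library 2A the adjusted p was 0.0741. Of the 18 somatic UMIs of rhesus 2, 12 lay in cells of the germ-like cluster that had no gate gene, and 6 single UMIs remained outside it. POU5F1 is known to have processed pseudogenes in primates, and how reads shared with such copies were counted was not tested. In the baboon POU5F1 did not pass the filter on low counts. Its germ-to-somatic ratio of levels inside the germ-like cluster was 15.1 (counting interval 3.96 to 50.03) in baboon 1 and 15.96 (2.97 to 85.7) in baboon 2. Of the 32 baboon UMIs in all cells, 17 lay in the far more numerous Sertoli-like cells, all as single UMIs at 0.227 and 0.327 CPM, and 10 in the germ-like cluster.

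SALL4 (chromosome 16, 78969363 to 78987106 in Panubis1.0) was in germ cells of all 4 animals. It had 30 UMIs in gated cells of baboon 1 (18.6 CPM), 34 in baboon 2 (3.90 CPM), 14 in rhesus 1 (21.2 CPM) and 26 in rhesus 2 (65.5 CPM), against 0.260 to 0.575 CPM in somatic cells. Each gated value was above the somatic value of the same animal, and rhesus 2 was again above rhesus 1. The log2 fold change was 4.84 ± 1.02 in the baboon (edgeR, adjusted p = 0.0485) and 5.69 ± 0.74 in the rhesus monkey (edgeR, adjusted p = 0.00202). The baboon call was not kept without library 1A (edgeR, adjusted p = 0.106) or without library 1B (edgeR, adjusted p = 0.0622). Inside the germ-like cluster the gated cells of the 2 baboons lay close together, at 31.2 and 27.5 CPM. In rhesus 2, 12 of 23 gated cells had a SALL4 UMI.

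L1TD1 (chromosome 1, 60580449 to 60586368 in Panubis1.0) had the largest number of UMIs in gated baboon cells of the genes followed. Gated cells held 145 UMIs in baboon 1 (89.7 CPM) and 184 in baboon 2 (21.1 CPM), against 10 (0.383 CPM) and 4 (0.208 CPM) in somatic cells. Single baboon germ-like cells held up to 17 UMIs, while no somatic baboon cell held more than 1. The log2 fold change was 7.08 ± 0.86 (edgeR, adjusted p = 0.014). Inside the germ-like cluster the 2 baboons were at 151 CPM (interval 127 to 178) and 152 CPM (130 to 175). The germ-like part held 961108 of the 1616037 UMIs of gated cells in baboon 1 and 1199708 of 8726082 in baboon 2. Sertoli-like cells were 57.4% and 69.1% of the gated cells. The cause of the lower value of baboon 2 over the whole gate was not tested. Of all baboon L1TD1 UMIs, 94.96% lay in the germ-like cluster, which made up 1.27% of the cells.

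In the rhesus monkeys L1TD1 was at 37.8 CPM (25 UMIs) and 42.9 CPM (17 UMIs) in gated cells, against 1.62 and 0.264 CPM in somatic cells. The log2 fold change was 4.80 ± 0.88 (edgeR, adjusted p = 0.00688). Of all rhesus L1TD1 UMIs, 76.8% lay in the germ-like cluster. Leydig-like cells were next, with single UMIs in 6 of 348 cells of rhesus 1 (5.004 CPM) and 3 of 160 of rhesus 2 (3.91 CPM), above the 0.269 to 0.813 CPM of Sertoli-like cells; free RNA of rhesus 1 held 1.44 CPM. Baboon germ cells and rhesus germ cells were counted on different gene models and were not tested against each other.

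LIN28A, listed in the baboon only, was close to the limit of detection, with 1 UMI in gated cells of baboon 1 and 3 in baboon 2, each in a different cell. Somatic cells of the 2 animals held 1 and 2 UMIs. The ratio in baboon 2 inside the germ-like cluster was 23.9 with a counting interval of 2.74 to 287, and LIN28A did not pass the filter for the test.

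LIN28B was found in germ cells of both species, and its somatic level differed between the 2 baboons. Gated cells of baboon 1 held 36 UMIs (22.3 CPM) and its somatic cells 204 (7.81 CPM, interval 6.78 to 8.96). In baboon 2 the gated cells held 58 UMIs (6.65 CPM) and the somatic cells only 4 (0.208 CPM, 0.0567 to 0.533). The 204 somatic UMIs of baboon 1 lay in 204 different cells, 1 each. Over all cells of a class, baboon 1 was at 7.35 CPM in Sertoli-like and 10.8 CPM in stroma-like cells. Its peritubular myoid and pericyte-like cells were at 10.51 CPM, from only 2 UMIs (interval 1.27 to 37.95). Its endothelial-like cells were at 1.37 CPM (1 UMI in 163 cells, 0.0346 to 7.61). Its 39 macrophage-like cells held 0 UMIs, with an upper bound of 35.6 CPM. Free RNA of the libraries of baboon 1 held LIN28B at 10.2 CPM in 1A and 11.97 CPM in 1B, against 7.16 and 9.02 CPM in somatic cells outside the germ-like cluster, and that of baboon 2 held 2.79 CPM. Germ-like cells of baboon 1 stood above both, at 27.6 CPM (18.6 to 39.4), and held up to 3 UMIs a cell. The somatic level of baboon 1 lay inside the counting interval of free RNA in both libraries, 7.03 to 14.3 CPM in 1A and 6.97 to 19.2 CPM in 1B. Whether it came from expression by somatic cells or from free RNA was not tested. The source of the LIN28B in free RNA was not tested. Baboon 1 was run with v2 and baboon 2 with v3 chemistry, so the animal, its age and the chemistry cannot be told apart.

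The 2 fits gave different calls for LIN28B in the baboon. Its log2 fold change was 1.35 ± 1.27 (edgeR, adjusted p = 0.871) without the block and 2.58 ± 0.70 (edgeR, adjusted p = 0.00396) with the animal as a block. Inside the germ-like cluster the ratio of levels was 3.99 (2.62 to 5.87) in baboon 1 and 224 (82.6 to 849) in baboon 2, with germ levels of 31.2 and 46.7 CPM. In the rhesus monkeys gated cells held 24 UMIs (36.3 CPM) and 6 UMIs (15.1 CPM), against 0.523 and 0.0881 CPM in somatic cells. The log2 fold change was 5.84 ± 1.01 (edgeR, adjusted p = 0.00568), and 94.2% of all rhesus LIN28B UMIs were in the germ-like cluster.

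TFAP2C was the gene of this group with the fewest somatic UMIs in the baboon. Gated cells of baboon 1 held 27 UMIs (16.7 CPM) and those of baboon 2 held 10 (1.15 CPM), against 1 somatic UMI in each animal. All of the gated UMIs lay in the germ-like cluster, where baboon 1 was at 28.1 CPM (18.5 to 40.9) and baboon 2 at 8.34 CPM (3.997 to 15.3), intervals that do not overlap. The log2 fold change was 6.93 ± 1.53 (edgeR, adjusted p = 0.0538), which missed the threshold, and 6.57 ± 1.34 with the block (edgeR, adjusted p = 3.31e-05). In the rhesus monkeys gated cells held 24 UMIs (36.3 CPM) and 7 UMIs (17.6 CPM). Their log2 fold change over somatic cells was 4.93 ± 0.89 (edgeR, adjusted p = 0.00648). Of the 18 somatic UMIs of rhesus 1, 15 were in germ-like cells without a gate gene.

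PRDM1 was shared between germ cells and several somatic classes. Gated cells held 18 UMIs in baboon 1 (11.1 CPM), 17 in baboon 2 (1.95 CPM), 1 in rhesus 1 (1.51 CPM) and 5 in rhesus 2 (12.6 CPM), and somatic cells 0.766, 3.28, 1.52 and 1.45 CPM. Stroma-like cells held 38 UMIs in baboon 2 and 17 in each rhesus monkey but only 2 in baboon 1, where the germ-like cluster held the most, 18. Gated cells were above somatic cells in 2 of the 4 animals, baboon 1 and rhesus 2. The log2 fold changes of 1.30 ± 1.04 in the baboon (edgeR, adjusted p = 0.825) and 1.54 ± 1.03 in the rhesus monkey (edgeR, adjusted p = 0.319) did not pass the test, with or without the block. Inside the baboon germ-like cluster the levels were 18.7 and 13.3 CPM. The highest somatic values were in macrophage-like cells of the baboons, 57.9 and 31.3 CPM from 6 and 9 UMIs, in macrophage-like cells of rhesus 2 (30.7 CPM, 6 UMIs in 3 cells) and in lymphoid-like cells of rhesus 1 (45.5 CPM, 7 UMIs). Endothelial-like cells of the baboons were at 15.0 CPM (11 UMIs) and 18.6 CPM (17 UMIs), beside 16.6 and 11.8 CPM in the whole germ-like cluster. Those of the rhesus monkeys were at 0 and 2.37 CPM. PRDM1 is also a regulator of lymphocytes and myeloid cells.

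SOX17, a factor of both germ cell specification and blood vessels, was highest in endothelial-like cells. These cells held SOX17 at 303 and 405 CPM in the baboons and at 169 and 222 CPM in the rhesus monkeys, and they contained 80.9% and 82.0% of all SOX17 UMIs of the species. The germ-like cluster was second, with 15.7% and 11.02%. Its levels were 47.9, 46.6, 28.8 and 52.7 CPM in baboon 1, baboon 2, rhesus 1 and rhesus 2, and 28.2%, 27.9%, 9.32% and 28.9% of its cells had a UMI. In Sertoli-like cells, the largest class in the baboon, SOX17 was at 0.324 and 0.196 CPM.

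Gated cells as a whole had 32.2 CPM (52 UMIs) in baboon 1, 7.11 CPM (62 UMIs) in baboon 2, 28.7 CPM (19 UMIs) in rhesus 1 and 47.9 CPM (19 UMIs) in rhesus 2. Somatic cells had 8.69, 18.8, 2.98 and 21.6 CPM, so that gated cells of baboon 2 were below somatic cells and those of the other 3 animals above. The log2 fold change was 0.13 ± 0.70 in the baboon (edgeR, adjusted p = 0.986), and -0.10 with the block. In the rhesus monkey it was 1.20 ± 0.75 (edgeR, adjusted p = 0.285), and 1.63 ± 0.50 with the block (edgeR, adjusted p = 0.0051). With the endothelial-like cluster left out of the somatic cells, an alternative chosen after seeing the data, the values were 5.28 ± 0.94 for baboons and 4.30 ± 0.61 for rhesus monkeys. Endothelial-like cells were 163, 155, 52 and 535 of the cells of the 4 animals, in the order baboon 1, baboon 2, rhesus 1 and rhesus 2.

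Endothelial markers were measured beside SOX17 in the germ-like cells. Their 10 genes summed to 97.1 to 131 CPM in germ-like cells with a SOX17 UMI and to 67.3 to 120 CPM in those without. The sum was higher in cells with SOX17 in baboon 1 (100.7 against 80.8 CPM), baboon 2 (110.5 against 67.3 CPM) and rhesus 1 (130.9 against 118.5 CPM). In rhesus 2 it was lower, at 97.1 against 120 CPM. Endothelial-like cells had 3579 to 5134 CPM, and Sertoli-like cells of baboon 1, baboon 2 and rhesus 1 had 3.11, 2.71 and 6.16 CPM. In the same 3 animals, 63.2%, 74.4% and 43.2% of germ-like cells with SOX17 had a UMI of any of these markers. In those without SOX17 the shares were 36.1%, 24.8% and 22.5%, and depth was not matched. Shares of rhesus 2 for this split are not given here. Over all gated germ-like cells the shares were 64.3%, 59.6%, 46.4% and 94.7% in baboon 1, baboon 2, rhesus 1 and rhesus 2. The last is 18 of 19 cells, which were also the deepest of the 4 animals, with a median of 15591 UMIs. Of the markers, TEK was at 0 in the SOX17-positive germ-like cells of every animal and CDH5 in those of baboon 2 and both rhesus monkeys, while at least 4 of the 10 had a UMI in each animal. CDH5 was at 0 in the endothelial-like cells of rhesus 1 as well. The part of endothelial RNA in the germ-like SOX17 level was not tested further. In free RNA SOX17 was at 7.75 to 11.2 CPM in the baboon libraries, at 2.17 CPM in rhesus 1 and at 11.4 and 12.3 CPM in 2A and 2B, below the germ-like level in all. The other 2 SOX factors of subgroup F, SOX7 and SOX18, were not called in the baboon, with log2 fold changes of -2.58 and -2.27.

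**Figure D4:**
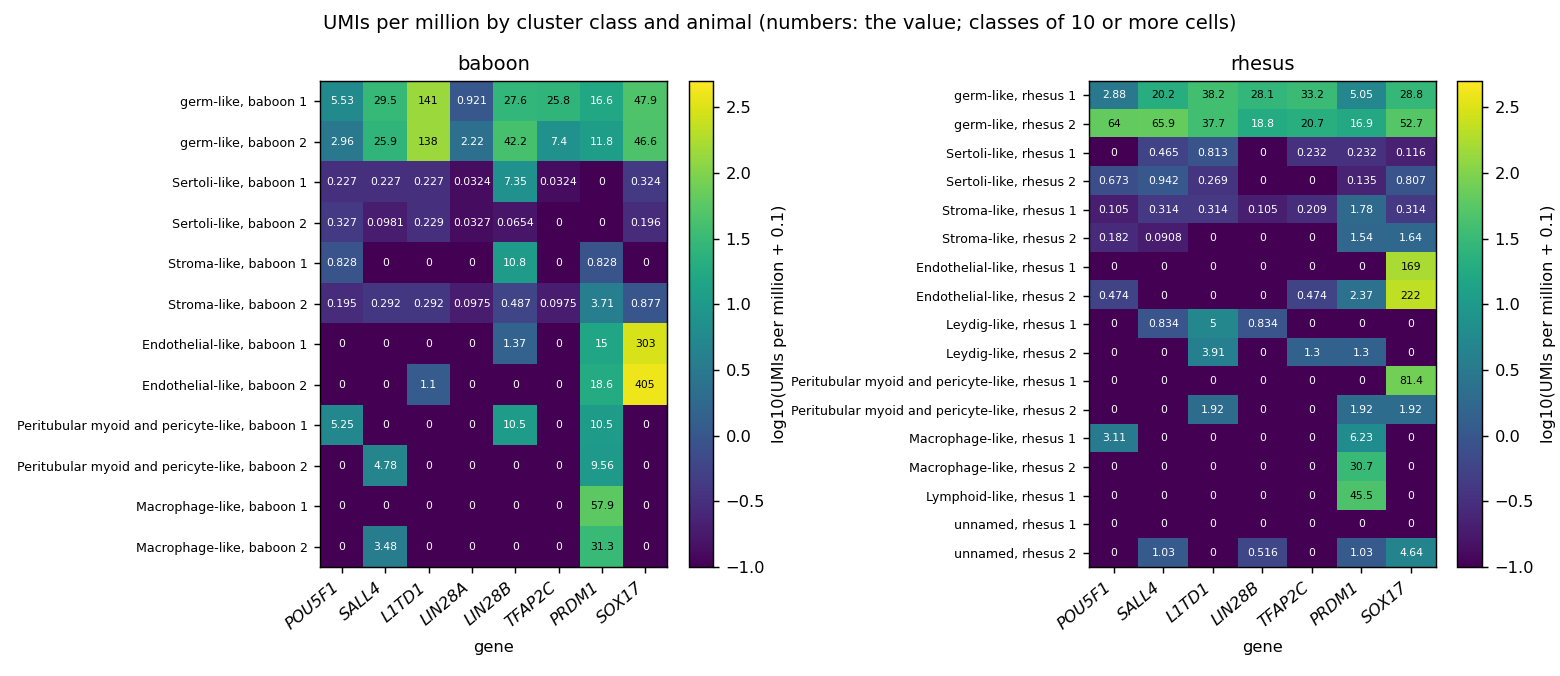
Level in CPM (number in each box, color on a log10 scale after adding 0.1) of each gene (columns) by cluster class and animal (rows), for classes of 10 or more cells, baboon left and rhesus right. L1TD1 and SALL4 are highest in the germ-like rows, SOX17 in the endothelial-like rows, and PRDM1 is spread over several somatic rows.

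**Figure D5:**
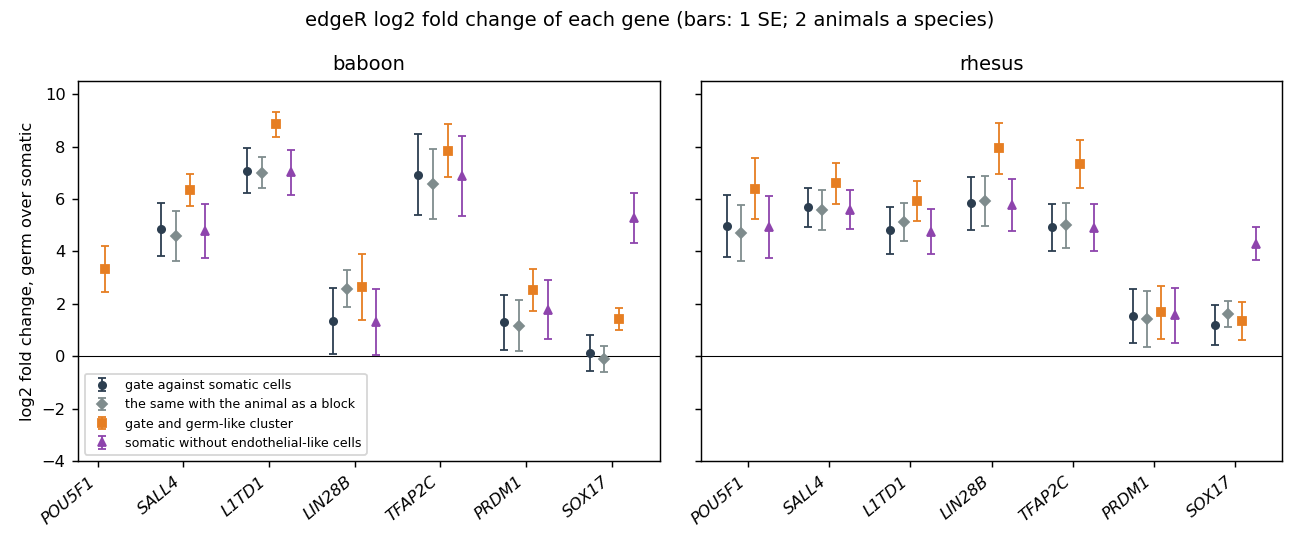
Log2 fold change of germ over somatic cells (y axis, ± 1 SE) for each gene tested (x axis) in the baboon and the rhesus monkey, under 4 choices of cells and model. SOX17 moves from 0.13 to 5.28 in the baboon when endothelial-like cells are left out, and LIN28B from 1.35 to 2.58 with the animal as a block. Leaving out endothelial-like cells was chosen after seeing the data and removes the class with most SOX17 UMIs.

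Per cell, these mRNAs were sparse. After thinning each cell to 1000 UMIs, 9.57% of gated cells of baboon 1, 3.60% of baboon 2, 16.05% of rhesus 1 and 13.0% of rhesus 2 had a UMI of any of the genes (exact binomial intervals 5.94 to 14.4%, 2.03 to 5.86%, 8.83 to 25.9% and 2.78 to 33.6%), against 1.42%, 1.43%, 0.587% and 1.31% of somatic cells. Without thinning the shares were 39.2%, 19.4%, 58.0% and 82.6%. In gated germ-like cells they were 22.6%, 16.9%, 18.8% and 15.8% after thinning, and the 4 intervals overlapped. At full depth 14 of 84 such cells of baboon 1 and 13 of 89 of baboon 2 had 4 or more of the genes at once, as did 3 of 69 in rhesus 1 and 5 of 19 in rhesus 2.

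The genes were found together in the same cells. In the 275 cells of the baboon germ-like cluster, SOX17 was in 77 and L1TD1 in 98, and 40 cells had both, which is 51.9% of the first and 40.8% of the second. SOX17 and LIN28B shared 33 cells, 42.9% of the SOX17 cells and 54.1% of the 61 LIN28B cells. SALL4 was in 53 cells, of which 32 (60.4%) also had L1TD1, and TFAP2C in 34, of which 19 (55.9%) also had SOX17. In the 442 rhesus germ-like cells the pair shared most often was SALL4 and SOX17, in 17 cells, 38.6% of the 44 SALL4 cells and 34.0% of the 50 SOX17 cells. POU5F1 was in 16 rhesus cells, 8 of them with SOX17 and 7 with SALL4. Deep cells show more genes of any kind, so these counts are a description.

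The spermatogonial state of the cells was not tested at full depth, since fewer than 10 gated cells of one state were found in baboon 1 and in both rhesus monkeys. With states set from cells thinned to 1000 UMIs, edgeR's quasi-likelihood test with Benjamini-Hochberg adjustment called 0 of 8083 genes in the baboon, with 28 at an unadjusted p under 0.05, and 6 of the genes followed were among those tested. This test used all gated cells, of which 27.6% lay in the germ-like cluster in the baboon. Of UTF1, PIWIL4, FGFR3, EGR4 and TSPAN33, 5 were listed for the baboon but 4 for the rhesus monkey. Gated cells with a UMI of these genes alone were 8 and 59 in the baboons and 1 and 0 in the rhesus monkeys, and those with NANOS3, KIT, DMRT1, SOHLH1 or STRA8 alone were 31, 69, 37 and 12. In the baboons only 4 and 10 cells of the first kind and 2 and 2 of the second lay in the germ-like cluster. Most gated germ-like baboon cells, 77 of 84 and 72 of 89, had both. Cells with both held 144 of the 145 L1TD1 UMIs of baboon 1 and 180 of the 184 of baboon 2, and 26 of 27 and 10 of 10 TFAP2C UMIs. Their median depth was 12178 and 20946 UMIs, the highest of the state groups in each baboon.

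Other genes of the same pathways were taken from lists and read against all genes tested. The limit given for the genes followed holds for all these lists. A listed gene with few somatic UMIs passed the filter through its gated sums, and a call as lower was hardly open to it. For such genes the counts of higher and lower calls add little to the levels. Of all genes, 102 of 16151 were called lower in the baboon and 1343 of 12909 in the rhesus monkey. Of 30 further genes of the pluripotency network, 16 were tested in the baboon, of which 4 were higher, beside 1.9% of all genes, and 0 lower, with a median log2 fold change of 0.27 against -0.10 for all genes. The 4 were SALL3 (7.78 ± 1.43), DPPA4 (7.52 ± 1.07), TRIM71 (5.54 ± 1.00) and UTF1 (2.73 ± 0.57), a factor of embryonic stem cells and spermatogonia. In the rhesus monkey 13 were tested, 4 were higher, beside 10.4% of all genes, and 1 was lower, and the median was 0.04 against -0.16. Here DPPA4 (5.41 ± 1.33), SALL1 (5.26 ± 1.05), DPPA5 (3.86 ± 1.17) and DPPA2 (3.39 ± 0.74) rose, and MYC fell by 3.06 ± 0.41, from 66.7 and 89.0 CPM in somatic cells to 13.6 and 12.6 CPM in gated cells. DPPA4 was called in both species, from 10.6 and 10.1 CPM in rhesus gated cells and 29.1 and 7.56 CPM in baboon gated cells. With gated germ-like cells against somatic cells outside that cluster, 3 of 12 rhesus genes tested were past the threshold upwards and 3 downwards. Of all rhesus genes, 13% were upwards and 2027 of 12766 downwards. The rhesus median was -0.47, below the -0.20 of all genes. In the baboon 7 of 17 were upwards (16.8% of all genes) and 0 downwards, with a median of 0.60 against -0.13. UTF1 of this list is also a marker that named the cluster.

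Of 27 further genes of primordial germ cells, 7 of 21 tested were higher in baboons and 9 of 18 in rhesus monkeys, where 1.9% and 10.4% of all genes were, and none was lower in either. The medians were 2.08 and 2.42. TFAP2A and TFAP2B, relatives of TFAP2C, were higher in both species, by 5.19 ± 0.94 and 6.40 ± 1.06 in the baboon and by 5.01 ± 0.90 and 7.13 ± 1.14 in the rhesus monkey. DND1, an RNA-binding protein that protects germ cell mRNAs, was higher by 4.61 ± 0.69 and 5.19 ± 0.72. NANOS2, a repressor of translation in male germ cells, was higher in the baboon by 7.15 ± 1.31. Gated cells of both rhesus monkeys held no NANOS2 UMI.

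Of 23 genes of the LIN28 and let-7 pathway, 3 of 21 tested were higher in baboons (1.9% of all genes) and 6 of 18 in rhesus monkeys (10.4% of all genes), with 0 and 1 lower and medians of 0.23 and -0.25. IGF2BP1, an mRNA-binding protein and known let-7 target, was higher by 6.71 ± 1.04 in baboons and 5.69 ± 1.11 in rhesus monkeys. HMGA1, a chromatin protein and let-7 target, was at 725 and 605 CPM in gated rhesus cells against 27.3 and 15.1 CPM in somatic cells (4.40 ± 0.49), and at 8.04 and 4.58 CPM in gated baboon cells (4.90 ± 0.96). TRIM71, a let-7 target that is also on the pluripotency list, was higher in the baboon.

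Of the spermatogonial lists, 3 of 15 tested genes of undifferentiated and 2 of 8 of differentiating spermatogonia were higher in the baboon, and 4 of 9 and 4 of 6 in the rhesus monkey, with none lower. The shares of all genes were again 1.9% and 10.4%, here and for the meiotic genes. Their medians were 2.50 and 2.01 in the baboon and 0.49 and 2.92 in the rhesus monkey. PIWIL4 (6.62 ± 0.94) and SOHLH1 (5.67 ± 0.78) were among those of the baboon, and ID4 (2.89 ± 0.36), EGR4 (3.84 ± 0.47), DMRT1 (4.58 ± 0.63) and NANOS3 (3.24 ± 0.42) among those of the rhesus monkey. Of 9 meiotic genes, 4 of 5 tested were higher in baboons and 5 of 5 in rhesus monkeys, with medians of 5.54 and 5.27, SYCP1 by 6.62 ± 0.82 and 4.81 ± 1.08. In gated germ-like cells of the baboon, where Sertoli-like cells are left out, 16.8% of all genes were past the threshold upwards and 2397 of 16213 downwards. Upwards were 13 of 21 of the primordial germ cell list, 8 of 21 of the LIN28 list and 9 of 15 of the undifferentiated list. Downwards were 3, 2 and 1. The markers that named the cluster include DDX4, UTF1, NANOS2 and NANOS3 of the first list and UTF1, PIWIL4 and NANOS2 of the last. Part of these counts can therefore follow from the choice of cluster.

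For each gene the most similar profiles were sought over the sums per animal and class, 12 for baboons and 15 for rhesus monkeys, by Pearson's r as a description. The gate genes and the markers that named the clusters were left out of this search. The germ cell genes had likenesses near 1. TFAP2C was most like FOXA2 and GALR1 in the baboon (1.00 for both) and like XAGE3 and TRIM36 in the rhesus monkey (0.994 and 0.991). L1TD1 was most like C20H19orf84 and LOC108582343 (1.00 and 0.9995) and, in the rhesus monkey, GDA and SH3GL2 (0.968 and 0.960). SALL4 was most like DLX5 and VGF (0.990 and 0.982) and, in the rhesus monkey, MGAM and CCNO (0.992 and 0.991). SOX17 stood apart from these, since its likest genes included FLT1, a receptor of vascular endothelium. Its values were 0.994 and 0.993 for USHBP1 and TVP23A in baboons, and 0.98 and 0.96 for EEPD1 and FLT1 in rhesus monkeys. POU5F1 was most like RHPN1 and ESPL1 (0.989 and 0.979) and, in the rhesus monkey, IZUMO3 and CYSLTR2 (0.963 and 0.960). PRDM1 was most like TGFB1 and STX10 (0.980 and 0.957) and, in the rhesus monkey, BIN2 and PSTPIP1 (0.947 and 0.924). LIN28B had lower values in the baboon, 0.950 and 0.932 for LOC110740624 and LOC101025860, than in the rhesus monkey, with 0.9985 for NUTM1 and 0.998 for TOPAZ1. The sums share libraries and depth, and genes with UMIs in the germ-like sums alone reach high values together.

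Between the baboons, gated germ-like cells had close levels of L1TD1, SALL4 and SOX17, with ratios of baboon 2 to baboon 1 of 1.01 (0.804 to 1.26), 0.881 (0.521 to 1.496) and 0.909 (0.615 to 1.35). Of the 8 genes, TFAP2C was the one with an interval that did not hold 1, at 0.297 (0.128 to 0.632). Between the rhesus monkeys the corresponding ratio of rhesus 2 to rhesus 1 was 13.2 (3.17 to 118) for POU5F1, 2.94 (1.46 to 6.24) for SALL4 and 0.368 (0.123 to 0.924) for LIN28B. The intervals of the other 4 genes held 1, with L1TD1 at 1.00 (0.507 to 1.93). These intervals cover counting error only. Between the baboons the chemistry also differed, v2 against v3, and cannot be told apart from the animal and its age.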

How the data were processed

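Raw UMI counts per gene and barcode, unnormalized, were deposited by the authors for 6 libraries, made with Cell Ranger 3.1.0. Seurat 3.2.3 is also named in the submitters' processing notes. Reads had been assigned to Panubis1.0 (baboon) or Mmul_10 (rhesus monkey). The genes followed, the gate and all lists were chosen with earlier results of these data known.

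Barcodes with at least 1000 UMIs were kept, and doublets were not removed. Cells were clustered per species on 2000 variable genes, 30 principal components and 20 neighbors (leidenalg 0.10.2, resolution 0.5), with the 9 genes and the gate genes left out, and clusters were named from marker lists. Counts were summed per animal and class, filtered with filterByExpr and tested in edgeR 4.0.16 by its quasi-likelihood method (R 4.3.3, TMM scaling, Benjamini-Hochberg adjustment). DESeq2 1.42.0 was an alternative. The code was tested on simulated data. Library totals set the depth, and intervals are exact (scipy 1.17.1). The germ and somatic sums of an animal deviated together from the class means (correlations of 0.324 for the baboon, 0.210 for the rhesus monkey), and the pairing comes from the shared testis. In the lists, the genes named were those past the threshold with the largest fold changes. The genes most like a member were the 2 with the highest Pearson r over profiles of log2(CPM + 1). They were sought among genes with at least 20 UMIs, without the gate genes and the cluster markers.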

Additional observations from a re-analysis of the deposited data

How the results depend on the processing

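Each species had 2 animals, so adjusted p-values rest on few samples, and leaving out baboon 2 or rhesus 1 left 1 sum per class and no test. In the baboon 2 genes of the group were called higher in the report, beside 409 of all 16151 genes called in either direction. The number was 1 with DESeq2 size factors in edgeR (339 of all 16151), with a minimum of 2000 UMIs (180 of 15849) or with one of 500 UMIs (415 of 16198). It was 5 with gated cells limited to at most 1 somatic marker (4162 of 15352). Gated cells inside the germ-like cluster gave 6, with somatic cells as in the report (5129 of 16230) or outside it (5113 of 16213). The replicate block of animals gave 4 (1607 of 16151), and that block and the cluster together gave 7 (8000 of 16213). Leaving out library 1A or 1B gave 1 each (148 of 15204 and 243 of 16094). In the rhesus monkey the number was 5 in the report (2691 of all 12909 genes called). It was 2 of 5 tested with at most 1 somatic marker (1082 of 11581) and 4 of 6 tested without library 2A (1753 of 11693). It was 6 with the block (4160 of 12909) or with the block and the cluster (4773 of 12766). Leaving endothelial-like cells out of the somatic cells also gave 6 (2775 of 12815), with SOX17 as the gene added. This alternative was chosen after seeing the data. It removes the class with 82.0% of the rhesus SOX17 UMIs, so the added call is no further support. The block changed no call of these genes other than those given in the report. Over all alternatives, genes called numbered 148 to 8000 in the baboon (409 in the report) and 1082 to 4773 in the rhesus monkey (2691 in the report). The SOX17 log2 fold change of the baboon turned negative, at -0.14 with a minimum of 2000 UMIs, -0.016 with no filter, -0.10 with the block and -0.10 without library 1A, and rhesus PRDM1 was at -7.01 with at most 1 somatic marker. That setting left 23 gated cells of rhesus 1 and 2 of rhesus 2. All gated rhesus cells of the report held 6 PRDM1 UMIs, so the value of -7.01 rests on very few counts. The causes of these changes were not tested.

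The share of gated cells with any of the genes moved with the depth of thinning. Without thinning it was 39.2%, 19.4%, 58.0% and 82.6% in baboon 1, baboon 2, rhesus 1 and rhesus 2, and at 2000 UMIs 19.9%, 9.27%, 31.9% and 40.9%. A gate of 3 genes gave 15.9% and 13.8% in the baboons, and the gate inside the germ-like cluster 22.6% and 16.9%.

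A gate without MAGEB2 was not run in the rhesus monkey, where that gate is the same.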
